A study of Mus musculus with 16 samples.

Results

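Cell division genes were followed through 40 members, 20 of the G1/S phase and 20 of the G2/M phase, chosen by gene symbol from a list of cell cycle and DNA replication genes. All 40 were found among the 23847 rows of the deposited table, and all 40 passed the minimum mean of 1 FPKM (fragment counts scaled to transcript length and library size) that left 11097 rows for testing. The study compared small intestinal organoids of C57BL/6 mice, epithelial cultures that grow from isolated crypts, on day 3 of culture. The 4 groups of 4 libraries were Atg16L1 dIEC organoids, headed ko by the submitters, with murine tumour necrosis factor (TNFa, here TNF) at 20 ng/ml for 2 hours, Atg16L1 f/f organoids with TNF in the same way, dIEC organoids without stimulation, and f/f organoids without stimulation. ATG16L1 belongs to the complex that attaches LC3 to membranes in autophagy, and TNF is an inflammatory cytokine. What drives the deletion, the age and sex of the mice, and whether the 4 libraries of a group came from separate mice or cultures were not stated in the labels. The p-values therefore reflect the spread between libraries, and that spread may be technical.

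In G1, D cyclins and then E cyclins drive kinases that inactivate the RB protein and free E2F factors, which switch on the genes that load the MCM helicase onto origins and supply nucleotides. Genes of G2 and mitosis are switched on later through MuvB complexes with B-MYB and FOXM1, many of them through a promoter element called the cell cycle genes homology region (CHR) next to CCAAT boxes, which bind NF-Y. In the intestine, division is confined to the crypt, where stem cells and transit-amplifying cells lie, and these cells are kept in organoids.

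Promoter sequence was not used to choose the members. RefSeq promoter windows (GRCm38.p6, 250 bases before to 50 bases after the start) were found for 32 of the 40 members, 15 of G1/S and 17 of G2/M. Mcm7 had 2 windows, which makes 33 in all, and a gene was counted once if any of its windows held the motif. There was no entry for Ccnd1, Ccnd2, Ccne2, Mcm4, Gins2, Ccna2, Aurkb or Kif20a. Each window was searched on both strands for 3 motifs: the CHR, spelled TTTGAA, the CCAAT box, spelled CCAAT, and E2F sites, spelled TTTCCCGC, TTTGGCGC, TTTCGCGC or TTTGCCGC. The CHR letters stood by 13 of 17 G2/M genes (76.5%) and 2 of 15 G1/S genes (13.3%), against 14.3% of the 8186 tested genes with a window. CCAAT stood by 16 of 17 G2/M genes (94.1%) and 9 of 15 G1/S genes (60.0%), against 43.9% of those genes. An E2F spelling stood by 6 of 15 G1/S genes (40%) and 1 of 17 G2/M genes (5.88%), against 4.87%. A match describes the letters only.

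The windows of 7 members with called changes are printed because they show both layouts and the exceptions, 5′ to 3′ on the strand of the gene, with any searched motif in capitals on either strand. Mcm6 (chr1:128359656-128359955, minus strand) and Mcm3 (chr1:20820263-20820562, minus strand) hold E2F spellings, which in Mcm6 overlap one another on opposite strands. Pcna (chr2:132253131-132253430, minus strand) holds 1 CCAAT box and none of the other letters. Cdk1 (chr10:69352863-69353162, minus strand) is the G2/M member that also holds an E2F spelling. Kif23 (chr9:61946750-61947049, minus strand) and Hmgb2 (chr8:57511593-57511892, plus strand) hold CHR letters close to CCAAT. Ccnb1 (chr13:100786437-100786736, minus strand) holds 2 CCAAT boxes without the letters TTTGAA, and other spellings of the CHR were not searched.
Mcm6: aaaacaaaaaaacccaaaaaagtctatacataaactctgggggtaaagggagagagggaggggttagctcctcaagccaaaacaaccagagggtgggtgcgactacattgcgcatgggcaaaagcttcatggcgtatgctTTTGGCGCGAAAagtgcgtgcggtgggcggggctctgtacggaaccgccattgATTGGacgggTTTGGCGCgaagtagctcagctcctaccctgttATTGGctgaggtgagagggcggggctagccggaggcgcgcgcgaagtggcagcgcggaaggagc
Mcm3: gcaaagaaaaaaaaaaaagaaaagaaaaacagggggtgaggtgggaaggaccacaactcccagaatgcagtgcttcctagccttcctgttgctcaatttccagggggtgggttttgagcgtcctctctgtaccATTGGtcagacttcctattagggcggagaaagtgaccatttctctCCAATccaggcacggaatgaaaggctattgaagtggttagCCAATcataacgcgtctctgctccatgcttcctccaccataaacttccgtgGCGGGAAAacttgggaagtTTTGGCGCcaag
Pcna: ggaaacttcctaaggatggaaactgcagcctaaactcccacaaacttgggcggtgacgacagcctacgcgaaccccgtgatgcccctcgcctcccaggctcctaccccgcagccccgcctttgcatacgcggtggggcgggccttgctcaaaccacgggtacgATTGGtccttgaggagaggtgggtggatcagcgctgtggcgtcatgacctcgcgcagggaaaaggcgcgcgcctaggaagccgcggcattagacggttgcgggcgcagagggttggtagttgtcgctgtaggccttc
Cdk1: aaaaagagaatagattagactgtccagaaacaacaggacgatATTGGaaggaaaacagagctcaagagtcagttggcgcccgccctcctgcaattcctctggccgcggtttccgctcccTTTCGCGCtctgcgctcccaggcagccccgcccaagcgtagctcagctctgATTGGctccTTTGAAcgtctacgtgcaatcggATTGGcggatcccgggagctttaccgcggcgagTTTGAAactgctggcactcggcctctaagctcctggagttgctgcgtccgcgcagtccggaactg
Kif23: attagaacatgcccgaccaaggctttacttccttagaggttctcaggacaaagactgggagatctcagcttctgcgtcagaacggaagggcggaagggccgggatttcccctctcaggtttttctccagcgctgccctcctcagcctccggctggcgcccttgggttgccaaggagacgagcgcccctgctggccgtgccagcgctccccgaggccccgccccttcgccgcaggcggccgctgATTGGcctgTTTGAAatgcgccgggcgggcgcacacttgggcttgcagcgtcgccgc
Hmgb2: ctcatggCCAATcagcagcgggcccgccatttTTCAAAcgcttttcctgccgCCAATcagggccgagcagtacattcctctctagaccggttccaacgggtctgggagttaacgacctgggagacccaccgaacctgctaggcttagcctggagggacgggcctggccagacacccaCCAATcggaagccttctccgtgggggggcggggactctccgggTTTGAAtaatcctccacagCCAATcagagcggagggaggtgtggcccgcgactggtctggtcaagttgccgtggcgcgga
Ccnb1: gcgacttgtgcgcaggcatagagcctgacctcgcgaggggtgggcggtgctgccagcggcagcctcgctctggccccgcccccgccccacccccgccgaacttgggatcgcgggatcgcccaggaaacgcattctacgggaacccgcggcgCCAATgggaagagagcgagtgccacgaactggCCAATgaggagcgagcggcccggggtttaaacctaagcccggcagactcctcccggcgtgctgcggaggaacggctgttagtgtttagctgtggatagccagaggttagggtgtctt

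The libraries were first checked against their labels. Atg16l1 measured 7.24 ± 0.414 FPKM in dIEC with TNF and 10.4 ± 0.679 FPKM in f/f with TNF (SD, n = 4), and 5.64 ± 0.573 FPKM in unstimulated dIEC and 8.97 ± 0.472 FPKM in unstimulated f/f, with no overlap in either pair (limma adjusted p = 0.000233 and 0.000122). FPKM cover the whole gene, so these levels do not measure the deleted stretch alone. Depth is unknown. In 4 libraries, dIEC with TNF 4, f/f with TNF 1, dIEC 4 and f/f 1, GC-rich transcripts were low relative to GC-poor ones. Spearman rho between transcript GC content and a gene's deviation, over 11002 genes that are not independent, ran from -0.705 to -0.392 in them. In the other 12 it ran from 0.413 to 0.622 with TNF and from -0.302 to 0.111 without stimulation. Counts below are therefore also given without these 4 libraries, which left 3 per group. Leaving them out keeps the GC gap between the treatments, and some values are also given with the GC trend removed. Immune cell genes were low. The 13 of 14 in the table summed to 24.7 to 29.5 FPKM in dIEC with TNF, 32.0 to 38.5 in f/f with TNF, 20.7 to 24.1 in unstimulated dIEC and 27.1 to 32.3 in unstimulated f/f, nearly all of it Lyz2, with Ncr1, S100a8 and Mpo at 0 everywhere. The sum of 14 mesenchymal and endothelial genes ran from 3.22 to 12.5 FPKM.

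In f/f organoids, cell cycle genes were called after 2 hours of TNF in both directions, in shares near those of all genes. Whether these shares lay below or above those of all genes changed with the scaling. In bulk libraries of whole organoids, a change in the number of dividing cells and a change in RNA per cell cannot be told apart. Of the 40 members, 16 were called (adjusted p under 0.05), against 47.2% of all genes, with 9 higher (26.9% of all genes) and 7 lower (20.3% of all genes). The G1/S members had 7 higher and 2 lower, and the G2/M members 2 higher and 5 lower. The median log2 change was 0.09 for G1/S and -0.01 for G2/M members, beside 0.05 for all genes. These medians were 0.06 and -0.07 without f/f 1, 0.14 and 0.02 without f/f with TNF 1, and 0.04 and -0.08 with the GC trend removed. With quantile normalization 12 members were higher and 8 lower, against 21.1% and 25.6% of all genes. With median-of-ratios scaling 9 were higher and 11 lower, against 23.3% and 24.4% of all genes. Without the 4 libraries above, 14 were higher and 12 lower, against 37.9% and 24.2% of all genes. Over all genes the split was 2986 higher and 2249 lower, 2346 higher and 2844 lower with quantile normalization, and 2588 higher and 2713 lower with median-of-ratios scaling.

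In dIEC organoids, 28 of 40 were called with the same treatment, against 53.1% of all genes, with 25 higher (33.4% of all genes) and 3 lower (19.8% of all genes). The G1/S members had 15 higher and 2 lower, and the G2/M members 10 higher and 1 lower. The median log2 change was 0.27 for G1/S and 0.17 for G2/M members, beside 0.09 for all genes. With the GC trend removed these medians were 0.17 and 0.11, and with median-of-ratios scaling that of G2/M was 0.09. Without the 4 libraries, 29 were higher and 5 lower, against 45.7% and 24.1% of all genes. Quantile normalization left 19 higher and 1 lower, against 23.0% and 26.5% of all genes, and median-of-ratios scaling 18 higher and 4 lower, against 25.0% and 25.9%. Over all genes the split was 3702 higher and 2195 lower, 2552 higher and 2939 lower with quantile normalization, and 2773 higher and 2875 lower with median-of-ratios scaling. The dIEC libraries of the same number deviated together across treatments (correlation 0.12 to 0.42). The fit with the number as a block called 29 higher and 5 lower, against 45.8% and 25.0% of all genes in that fit. It added Tk1, Plk1, Ube2c and Cenpe as higher and Birc5 and Kif11 as lower. The 2 genotypes were compared by a separate test of the difference.

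**Figure D1:**
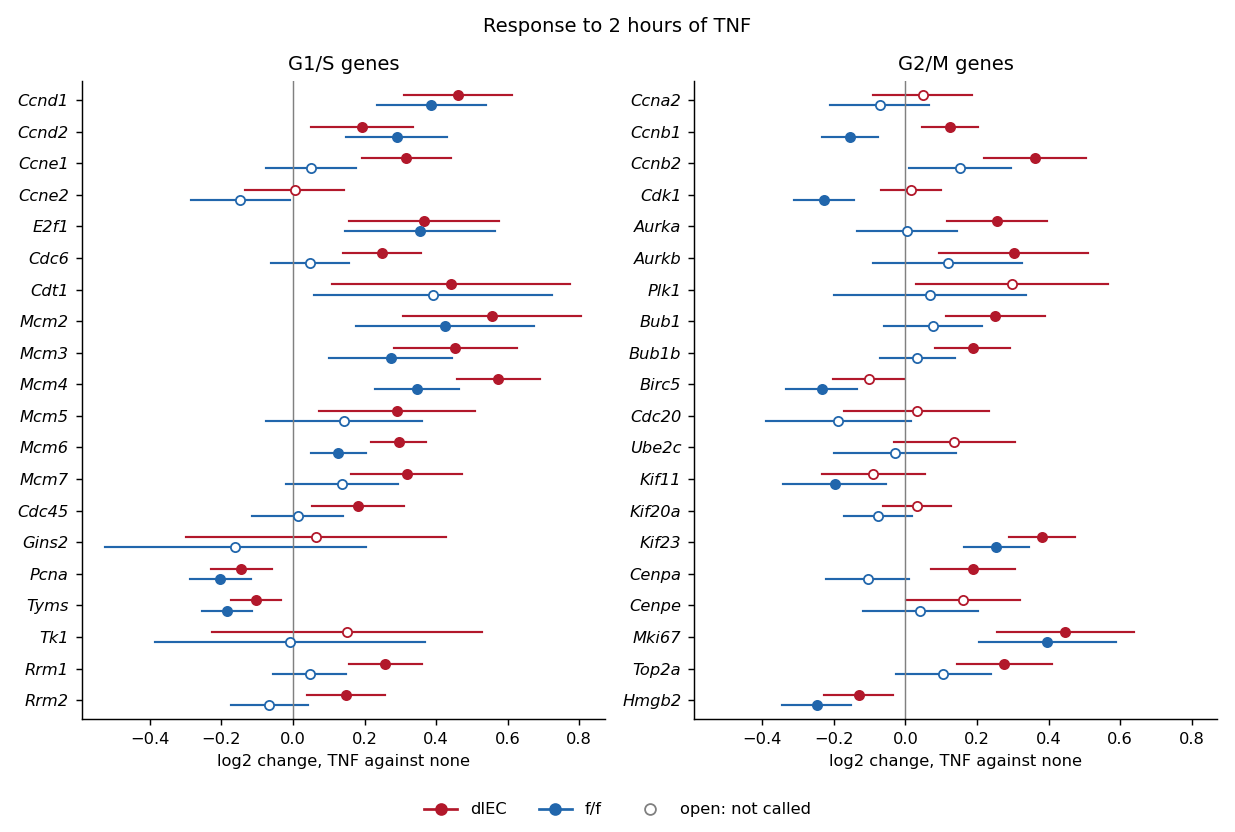
Log2 change of each of the 40 members with TNF against none (horizontal axis, log2(FPKM + 1) scale), in dIEC (red, upper) and f/f (blue, lower) organoids, with 95% confidence intervals from limma. Filled points passed adjusted p under 0.05. For 39 of 40 members the dIEC point lies to the right of the f/f point, the exception being Ccnd2.

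The D cyclins, which open the G1 phase with CDK4 and CDK6, rose in both genotypes. Ccnd1 measured 28.5, 31.2, 31.3 and 26.2 FPKM in dIEC with TNF, against 20.0, 22.8, 21.6 and 19.5 FPKM in unstimulated dIEC. In f/f organoids it measured 26.9, 30.2, 28.9 and 30.3 FPKM with TNF, against 19.5, 23.7, 22.6 and 22.3 FPKM without. Neither pair of groups overlapped, and the log2 changes were 0.46 in dIEC (SE 0.0708, adjusted p = 7.44e-05) and 0.39 in f/f (adjusted p = 0.000427). Ccnd2 was called higher by 0.19 in dIEC (adjusted p = 0.0241) and 0.29 in f/f (adjusted p = 0.00232), with f/f with TNF library 1 at 77.8 FPKM and the other 3 of its group at 60.5 to 62.2. In dIEC its call was lost without dIEC 1 or 3 or dIEC with TNF 1 or 3, with quantile normalization (adjusted p = 0.0545), with median-of-ratios scaling (adjusted p = 0.325), and with the GC trend removed (0.14, adjusted p = 0.0867).

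The E cyclins partner CDK2 at the entry to S phase. Ccne1 measured 9.72, 10.7, 10.8 and 9.93 FPKM in dIEC with TNF, against 7.58, 8.79, 8.14 and 7.73 FPKM in unstimulated dIEC. These values did not overlap, and the log2 change was 0.32 (SE 0.0583, adjusted p = 0.000369). In f/f organoids Ccne1 averaged 8.90 ± 0.266 FPKM with TNF and 8.58 ± 0.732 FPKM without, a log2 change of 0.05 (adjusted p = 0.508). Ccne2 was not called in either genotype, at 0.00 in dIEC and -0.15 in f/f, and was called in f/f with quantile normalization (-0.28, adjusted p = 0.0287). E2f1, the transcription factor freed from RB, was called higher in both, by 0.37 in dIEC (adjusted p = 0.00583) and 0.35 in f/f (adjusted p = 0.00812).

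The origin licensing genes rose together in dIEC. CDC6 and CDT1 load the helicase built from MCM2 to MCM7. In dIEC, 8 of 8 tested licensing genes rose, by 0.25 for Cdc6 to 0.57 for Mcm4, and in f/f 4 of 8 rose, namely Mcm2, Mcm3, Mcm4 and Mcm6, beside 33.4% of all genes in dIEC and 26.9% in f/f. Cdt1 was also called in f/f with quantile normalization (0.31, adjusted p = 0.0481), with median-of-ratios scaling (0.34, adjusted p = 0.0442) and without dIEC 4 (0.39, adjusted p = 0.0459), and Mcm7 with quantile normalization (0.19, adjusted p = 0.0125). Mcm4 measured 34.1, 35.9, 36.9 and 35.5 FPKM in dIEC with TNF, against 22.1, 24.3, 22.6 and 25.5 FPKM in unstimulated dIEC, a log2 change of 0.57 (SE 0.0546, adjusted p = 6.26e-07). In f/f it measured 31.9, 32.2, 33.1 and 33.8 FPKM with TNF, against 22.8, 26.1, 26.7 and 26.7 FPKM without, a change of 0.35 (adjusted p = 0.000118). All TNF libraries lay above all unstimulated ones for this gene. Mcm2 rose by 0.56 in dIEC (SE 0.117, adjusted p = 0.00105) and 0.43 in f/f (adjusted p = 0.00779), with overlap in f/f because library 1 with TNF had 22.6 FPKM and unstimulated library 2 had 22.7. Mcm6, whose promoter is printed above, rose by 0.30 in dIEC (adjusted p = 8.25e-06) and by 0.13 in f/f (adjusted p = 0.00951, and 0.195 with median-of-ratios scaling). Cdc6 lost its dIEC call with quantile normalization (adjusted p = 0.205). The call of Cdt1 in dIEC was lost without dIEC 4 or dIEC with TNF 2 or 3, and that of Mcm5 without any of these or dIEC with TNF 1.

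Among 3 genes that act after licensing, 1 rose and 1 fell in dIEC, and in f/f 0 rose and 1 fell. Of all genes, 33.4% rose and 19.8% fell in dIEC, and 26.9% and 20.3% in f/f. CDC45 and GINS complete the active helicase, and PCNA is the clamp that holds the polymerases on DNA. Cdc45 rose by 0.18 in dIEC (adjusted p = 0.0194), a call lost without dIEC 4 or dIEC with TNF 3 and under both other scalings, and stood at 0.01 in f/f (adjusted p = 0.883). Gins2 was not called in either. Pcna fell: it measured 243, 247, 256 and 247 FPKM in dIEC with TNF, against 287, 259.5, 279 and 273 FPKM in unstimulated dIEC. In f/f it measured 239.6, 245, 235 and 244 FPKM with TNF, against 291, 275, 277 and 268 FPKM without. The groups did not overlap in either genotype, with log2 changes of -0.14 in dIEC (SE 0.0402, adjusted p = 0.00764) and -0.20 in f/f (adjusted p = 0.00082). With quantile normalization the dIEC call was lost (adjusted p = 0.0808).

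Among the nucleotide suppliers, Tyms, which makes thymidylate, fell in both genotypes, by -0.10 in dIEC (adjusted p = 0.0147) and -0.19 in f/f (adjusted p = 0.000317), again without overlap. Its dIEC call was lost without dIEC with TNF 2, and in a fit of the dIEC libraries alone (adjusted p = 0.0571). Rrm1 and Rrm2, the subunits of ribonucleotide reductase, rose in dIEC by 0.26 (adjusted p = 0.000387) and 0.15 (adjusted p = 0.0249) and were not called in f/f, at 0.05 and -0.07, where Rrm2 was called with median-of-ratios scaling (-0.12, adjusted p = 0.0424). The Rrm2 call in dIEC was lost without dIEC 1 or 3 or dIEC with TNF 2 or 4 and under both other scalings. Tk1, thymidine kinase, was not called, and its lowest value in each group came from the library of that group that stood apart. Pcna, Tyms, Ccnb1 and Ccnb2 have pseudogene copies in GENCODE vM21, and the handling of reads shared with them was not stated, so their values are uncertain to that extent.

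**Figure D2:**
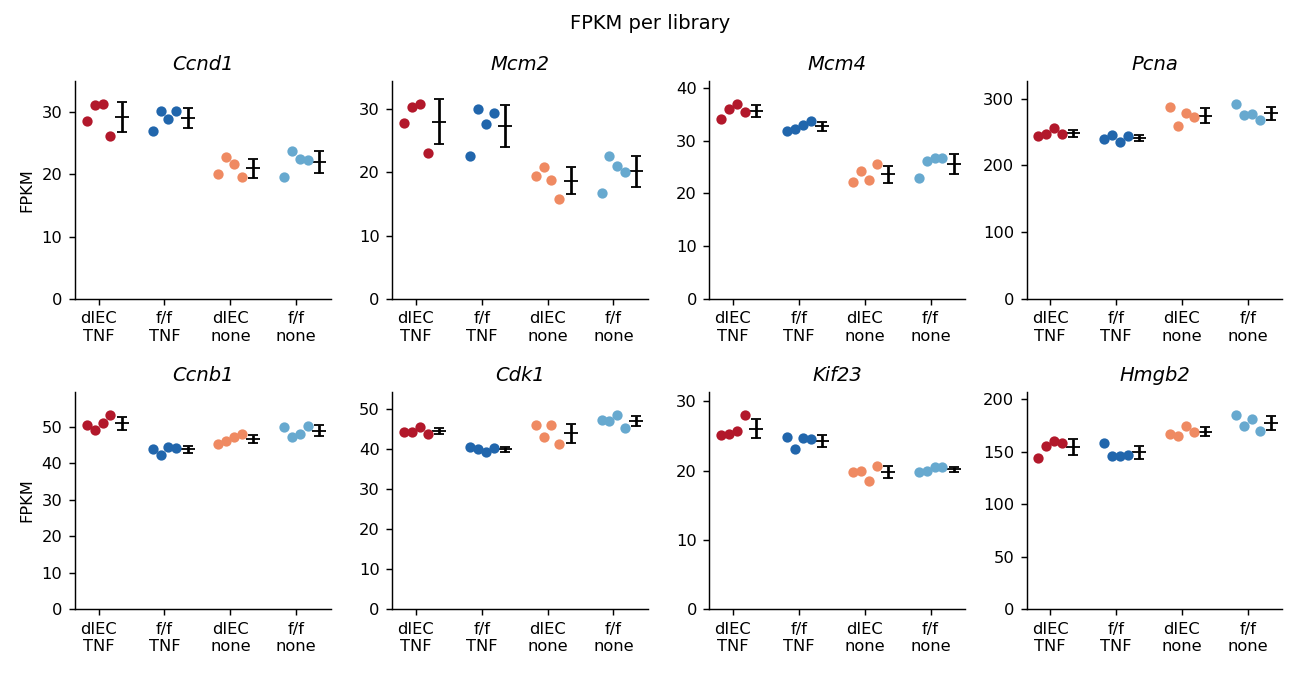
FPKM of 8 members in each of the 16 libraries (vertical axis from 0), for dIEC with TNF, f/f with TNF, unstimulated dIEC and unstimulated f/f, with the mean and SD of 4 libraries at the right of each group. Mcm4 and Kif23 are higher in all TNF libraries than in all unstimulated ones, Pcna and Hmgb2 are lower, and for Ccnb1 and Cdk1 the f/f libraries with TNF (42.3 to 44.6 and 39.2 to 40.7 FPKM) are the lowest group.

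Of the 4 genes of mitotic cyclins and CDK1, the kinase that drives entry into mitosis, 2 were called for a difference of responses. These were Ccnb1 and Cdk1, where 1.39% of all genes were called in that direction. Both calls were lost with quantile normalization and with median-of-ratios scaling. Ccnb1, which partners CDK1, measured 50.4, 49.0, 51.1 and 53.2 FPKM in dIEC with TNF, against 45.4, 46.1, 47.1 and 48.0 FPKM in unstimulated dIEC. In f/f organoids it measured 44.0, 42.3, 44.6 and 44.3 FPKM with TNF, against 50.1, 47.1, 48.1 and 50.2 FPKM without. Neither pair overlapped: Ccnb1 rose by 0.12 in dIEC (SE 0.0366, adjusted p = 0.0104) and fell by -0.15 in f/f (adjusted p = 0.00302). The rise was 0.03 with median-of-ratios scaling (adjusted p = 0.66) and 0.13 with quantile normalization (adjusted p = 0.0655), and the fall was -0.11 with quantile normalization (adjusted p = 0.117).

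Cdk1 measured 44.3, 44.2, 45.7 and 44.0 FPKM in dIEC with TNF, against 46.0, 43.0, 46.0 and 41.2 FPKM in unstimulated dIEC, which overlapped (log2 change 0.02, adjusted p = 0.742). In f/f organoids it measured 40.7, 40.01, 39.2 and 40.3 FPKM with TNF, against 47.4, 47.1, 48.6 and 45.4 FPKM without. The f/f groups were well apart, and the log2 change was -0.23 (SE 0.0391, adjusted p = 0.000252). Ccnb2, the second B cyclin, rose by 0.36 in dIEC (adjusted p = 0.000378) and was not called in f/f (0.15, adjusted p = 0.0739), where quantile normalization called it (0.17, adjusted p = 0.00663). Ccna2, which serves in both S phase and mitosis, was not called in either.

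Of 6 mitotic kinases and checkpoint genes, 4 rose in dIEC, where 33.4% of all genes rose. In f/f 0 of them rose by limma, Birc5 fell, and the other 5 had unadjusted p from 0.244 to 0.948. Of all genes, 26.9% rose and 20.3% fell in f/f. Aurka, the kinase of the spindle poles, averaged 28.6 ± 1.22 FPKM in dIEC with TNF and 23.8 ± 1.58 FPKM in unstimulated dIEC, a log2 change of 0.26 (adjusted p = 0.00425). Aurkb, the kinase of the chromosomal passenger complex, rose by 0.30 (adjusted p = 0.0172), a call lost without dIEC 4 or dIEC with TNF 3. The spindle checkpoint kinases Bub1 and Bub1b rose by 0.25 and 0.19 (adjusted p = 0.00438 and 0.00493). With quantile normalization both calls were lost (adjusted p = 0.275 and 0.062), and Bub1 lost its call with median-of-ratios scaling (adjusted p = 0.118). Plk1 was at 0.30 in dIEC (adjusted p = 0.0589). Birc5, survivin, which sits in the same complex as Aurora B, fell in f/f by -0.23 (adjusted p = 0.000884) and stood at -0.10 in dIEC (adjusted p = 0.0785), where it was called with median-of-ratios scaling (-0.19, adjusted p = 0.0006) and without dIEC 4 (adjusted p = 0.0441). Cdc20 and Ube2c, which work with the anaphase-promoting complex at mitotic exit, were called in neither genotype with the values as deposited. Cdc20 was called lower in f/f with quantile normalization (-0.19, adjusted p = 0.0396) and median-of-ratios scaling (-0.25, adjusted p = 0.00974), and lower in dIEC with the GC trend removed (-0.15, adjusted p = 0.000232). Ube2c was called higher in dIEC with quantile normalization (0.20, adjusted p = 0.00448).

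The motor, centromere and chromatin genes of mitosis moved in both directions. Kif23, a kinesin of cytokinesis, measured 25.1, 25.3, 25.8 and 28.0 FPKM in dIEC with TNF, against 19.8, 20.0, 18.6 and 20.7 FPKM in unstimulated dIEC. In f/f it measured 24.9, 23.1, 24.7 and 24.5 FPKM with TNF, against 19.8, 20.0, 20.5 and 20.5 FPKM without. All TNF libraries lay above all unstimulated ones, with log2 changes of 0.38 in dIEC (SE 0.0427, adjusted p = 3.43e-06) and 0.25 in f/f (adjusted p = 0.000209). Mki67, the gene of the proliferation marker Ki-67, measured 60.7, 59.7, 60.2 and 68.3 FPKM in dIEC with TNF, against 38.9, 47.6, 41.9 and 54.3 FPKM in unstimulated dIEC. It measured 70.0, 55.7, 60.9 and 59.7 FPKM in f/f with TNF, against 44.4, 46.8, 46.3 and 48.0 FPKM in unstimulated f/f. It rose without overlap in both, by 0.45 (adjusted p = 0.000758) and 0.40 (adjusted p = 0.00218), and in 3 of the 4 libraries that stood apart, all but f/f 1, its value was the highest of the group.

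Top2a, the topoisomerase that untangles chromosomes, rose in dIEC by 0.28 (adjusted p = 0.00172) and was not called in f/f (0.11, adjusted p = 0.176). Cenpa, the histone of centromeres, rose in dIEC by 0.19 (adjusted p = 0.00918) and stood at -0.11 in f/f (adjusted p = 0.127). With median-of-ratios scaling Top2a and Cenpa lost their dIEC calls (adjusted p = 0.0633 and 0.0655). In f/f, Cenpa was called lower with quantile normalization (adjusted p = 0.0245) and with median-of-ratios scaling (-0.16, adjusted p = 0.00553). Cenpe, a kinetochore motor, and Kif20a, a kinesin of cytokinesis, were not called. Without dIEC 4 Cenpe was called higher in dIEC (0.24, adjusted p = 0.00624), and Kif20a was called lower in f/f with quantile normalization (adjusted p = 0.0139) and median-of-ratios scaling (-0.13, adjusted p = 0.0183). Kif11, the motor that separates the spindle poles, fell in f/f by -0.20 (adjusted p = 0.0255), a call lost without f/f 1 or 3 or f/f with TNF 2, 3 or 4, and with quantile normalization (adjusted p = 0.107). Hmgb2, a chromatin protein of dividing cells, measured 144, 155, 160.3 and 158 FPKM in dIEC with TNF, against 167, 165, 175 and 169 FPKM in unstimulated dIEC. It measured 158, 146, 146 and 147 FPKM in f/f with TNF, against 185, 174, 181 and 170.2 FPKM in unstimulated f/f. The groups did not overlap in either genotype, with log2 changes of -0.13 in dIEC (adjusted p = 0.024) and -0.25 in f/f (adjusted p = 0.000388). The dIEC call was lost without dIEC 3 or dIEC with TNF 1, and with the GC trend removed it was -0.04 (adjusted p = 0.535), with -0.11 in f/f (adjusted p = 0.0641). With quantile normalization both calls of Hmgb2 were lost too (adjusted p = 0.579 in dIEC and 0.0744 in f/f).

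Averaged over the class, the 20 G1/S genes stood at a mean log2(FPKM + 1) of 4.80 ± 0.08 in dIEC with TNF, 4.75 ± 0.08 in f/f with TNF, 4.54 ± 0.06 in unstimulated dIEC and 4.63 ± 0.09 in unstimulated f/f (SD, n = 4). The 20 G2/M genes stood at 5.31 ± 0.01, 5.22 ± 0.02, 5.15 ± 0.03 and 5.24 ± 0.06 in the same groups. With the values as deposited, all 4 dIEC libraries with TNF lay above all 4 f/f libraries with TNF on the G2/M mean. The G1/S means of the 2 groups overlapped. The factors of the median-of-ratios scaling, by which values are divided, differed between libraries. They were 0.954 for f/f with TNF 1 and 1.04 for dIEC with TNF 1. Class levels were not recomputed with other scalings, so whether the G2/M groups stay apart under them was not tested. The G1/S level minus the G2/M level was -0.52 ± 0.07 in dIEC with TNF, -0.47 ± 0.06 in f/f with TNF, -0.61 ± 0.05 in unstimulated dIEC and -0.60 ± 0.04 in unstimulated f/f. In each group the lowest G1/S level was that of the library that stood apart, and the transcripts of G1/S members had a median GC content of 50.1%, against 47.6% for G2/M members. Without these libraries the differences were -0.48, -0.44, -0.58 and -0.59 in the order just given (n = 3).

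**Figure D3:**
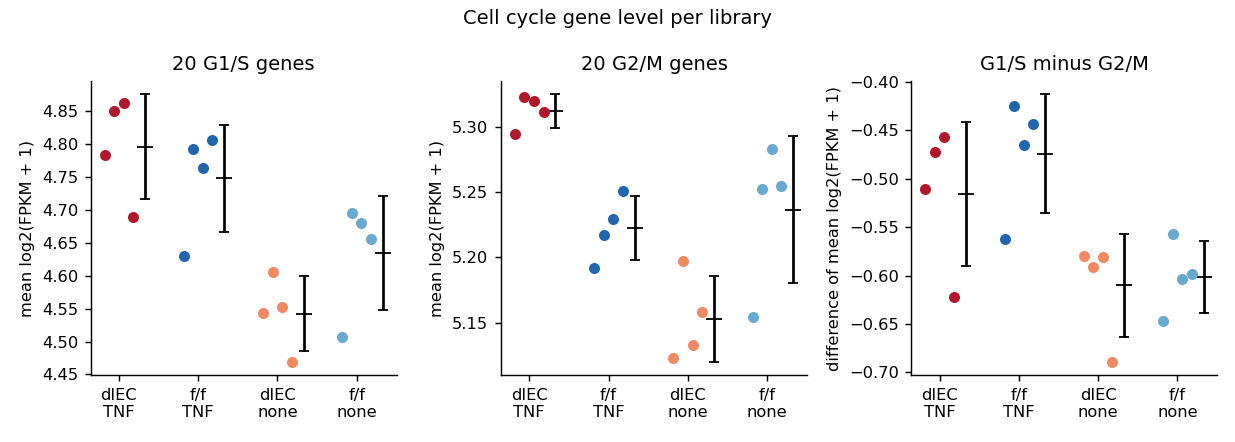
Mean log2(FPKM + 1) over the 20 G1/S members (left) and the 20 G2/M members (middle), and the first minus the second (right), 1 point per library, with the mean and SD of 4 libraries at the right of each group. With the values as deposited, the G2/M level of dIEC with TNF (5.31 ± 0.01) lies above that of f/f with TNF (5.22 ± 0.02). In each group 1 library has a low G1/S level.

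The difference between the TNF responses, dIEC minus f/f, was tested directly. It was above 0 for 39 of 40 members, beside 60.6% of all genes, with a median log2 difference of 0.16 for G1/S and 0.17 for G2/M members, beside 0.03 for all genes. It was called higher for 2 members, against 1.39% of all genes in that direction and 3.29% in either. An unadjusted p under 0.05 was found for 12 members, beside 1465 of the 11097 genes tested. With the replicate block 17 were called, all higher, against 6.32% of all genes in that direction and 11.1% in either. Pairs of the same number correlated at 0.12 to 0.42 in dIEC, as above, and at -0.03 to 0.32 in f/f. The called members were Ccnb1, at 0.28 (95% interval 0.17 to 0.39, adjusted p = 0.00691), and Cdk1, at 0.24 (0.13 to 0.36, adjusted p = 0.0247). Cenpa came next at 0.29 (0.13 to 0.46, adjusted p = 0.0522). Cdk1 lost its call without dIEC 2, dIEC with TNF 3, f/f 3 or f/f with TNF 3, which left 1 call. In these fits 2.33% to 2.46% of all genes were called. Leaving out f/f 1 gave 6 calls (3.15% of all genes) and leaving out dIEC 4 gave 5 (4.06%). Under quantile normalization Ccnb1 and Cdk1 stood at 0.23 and 0.21 (adjusted p = 0.139 and 0.116), and under median-of-ratios scaling at 0.25 and 0.21 (adjusted p = 0.147 and 0.21). Under these scalings Cenpa was the 1 member called, at 0.25 and 0.26 (adjusted p = 0.0167 and 0.0224). With the GC trend removed Cdk1 stood at 0.21 (adjusted p = 0.0703). The difference was above 0 for 37 members with quantile normalization (52.1% of all genes) and 38 with median-of-ratios scaling (51.5%). Without f/f with TNF 1 it was above 0 for 37 members (49.7% of all genes).

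Without the 4 libraries that stood apart, the difference was called higher for 17 members, 7 of G1/S and 10 of G2/M, against 4.79% of all genes in that direction and 8.71% in either, and it was above 0 for all 40. The 7 were Ccne1, Mcm3, Mcm4, Mcm6, Mcm7, Rrm1 and Rrm2. The 10 were Ccnb1, Ccnb2, Cdk1, Aurka, Bub1, Bub1b, Cdc20, Kif11, Cenpa and Top2a. Removing the GC trend from all 16 libraries called 9, all higher, against 3.42% of all genes in that direction and 9.22% in either. The largest differences in the 3-library groups were those of Ccne1 (0.31, adjusted p = 0.0341) and Mcm4 (0.30, adjusted p = 0.00936).

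The genotypes were then compared within each treatment, in pairs of groups that share no libraries. Under TNF, dIEC stood above f/f for 35 of 40 members, beside 55.4% of all genes. It did so for 28 members with quantile normalization (49.8% of all genes) and 34 with median-of-ratios scaling (50.7%). Without f/f with TNF 1 it did so for 28 members (43.9% of all genes). The median log2 differences of G1/S and G2/M members were then 0.005 and 0.08, against 0.05 and 0.08 with all libraries. Over all members the median log2 difference was 0.06 (0.03 with quantile normalization), beside 0.01 for all genes. Of the members, 2 were called higher, against 3.79% of all genes in that direction and 6.5% in either: Ccnb1 by 0.21 (SE 0.0366, adjusted p = 0.00192) and Cdk1 by 0.15 (SE 0.0391, adjusted p = 0.0324). In 10 members all 4 dIEC values lay above all 4 f/f values (8.64% of all genes), namely Ccne1, Mcm4, Mcm6, Rrm1, Rrm2, Ccnb1, Cdk1, Aurka, Kif23 and Cenpa. For Rrm2 these were 37.8, 38.4, 37.3 and 39.5 FPKM in dIEC with TNF and 34.2, 33.3, 34.6 and 35.7 FPKM in f/f with TNF (log2 difference 0.15, adjusted p = 0.111). Cdk1 lost its call without f/f with TNF 2, 3 or 4 or dIEC with TNF 1, 2 or 3, which left 1 call. In these fits 4.84% to 5.17% of all genes were called. Without f/f 1, 4 members were called (6.73% of all genes). Without the 4 libraries 4 were called, Ccne1, Rrm2, Ccnb1 and Cdk1, against 13.6% of all genes in either direction. Under median-of-ratios scaling Ccnb1 was at 0.20 (adjusted p = 0.0557) and Cdk1 at 0.14 (adjusted p = 0.205), and under quantile normalization they were at 0.17 and 0.11 (adjusted p = 0.0923 and 0.197). Ccne1 was the 1 member called under these scalings, at 0.17 and 0.18 (adjusted p = 0.0365 and 0.0442).

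Unstimulated, dIEC stood below f/f for 39 of 40 members, all but Ccnd2, beside 58.5% of all genes, with a median log2 difference of -0.09, beside -0.02 for all genes. limma called 0 of 40 members, against 2.32% of all genes. An unadjusted p under 0.05 was found for 7 members, beside 1173 of the 11097 genes tested. The differences ran from -0.17 for Gins2 to 0.05 for Ccnd2. Tyms was the member whose 4 dIEC values, 19.5, 19.4, 20.1 and 19.4 FPKM, all lay below the 4 f/f values, 21.5, 20.6, 20.8 and 20.6 FPKM (adjusted p = 0.303), a pattern that 2.97% of all genes showed in that direction. Without dIEC 4 alone, Rrm1 was called, at -0.16 (adjusted p = 0.0461), and with quantile normalization Cenpa was, at -0.16 (adjusted p = 0.042). Without all 4 libraries that stood apart, 12 were lower, against 3.35% of all genes in that direction and 6.39% in either. They were Cdc6, Mcm3, Mcm4, Mcm6, Mcm7, Rrm1 and Rrm2 of G1/S and Ccnb2, Bub1, Bub1b, Kif11 and Cenpa of G2/M, with log2 differences from -0.20 (Mcm4, adjusted p = 0.0178) to -0.12 (Kif11, adjusted p = 0.0301).

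**Figure D4:**
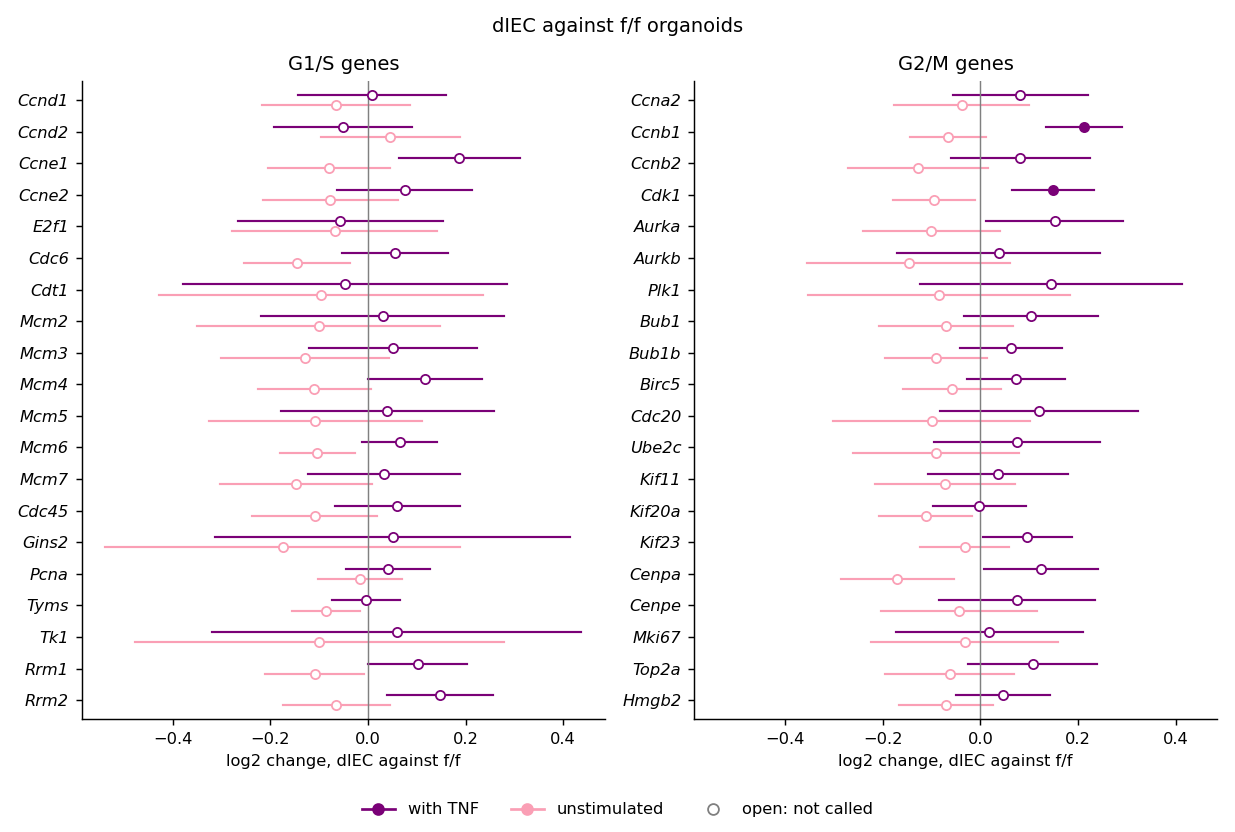
Log2 difference of each of the 40 members, dIEC against f/f (horizontal axis, log2(FPKM + 1) scale), with TNF (purple, upper) and unstimulated (pink, lower), with 95% confidence intervals from limma. Filled points, Ccnb1 and Cdk1 with TNF, passed adjusted p under 0.05; 35 of 40 points with TNF lie above 0 and 39 of 40 unstimulated points below it.

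Other genes of the same machinery were read from lists chosen with earlier results known. Of all genes, 33.4% were called higher and 19.8% lower with TNF in dIEC, and 26.9% and 20.3% in f/f. Of 6 tested CDK inhibitors, 1 rose and 3 fell with TNF in each genotype. Cdkn1a, the p21 inhibitor, was the one that rose, at 77.2 ± 5.46 FPKM in dIEC with TNF, 64.1 ± 5.3 in f/f with TNF, 32.5 ± 2.73 in unstimulated dIEC and 28.3 ± 1.84 in unstimulated f/f (log2 change 1.22 in dIEC, adjusted p = 5.15e-09, and 1.15 in f/f, adjusted p = 1.42e-08). Cdkn2c, which blocks CDK4 and CDK6, and Cdkn1b, the p27 inhibitor, fell in both genotypes. Cdkn2b, the p15 inhibitor, was at 15.1 ± 1.37 FPKM in dIEC with TNF, 15.9 ± 1.09 in f/f with TNF, 23.3 ± 1.23 in unstimulated dIEC and 17.6 ± 0.807 in unstimulated f/f. It was called higher in dIEC without stimulation (0.39, adjusted p = 0.00425), and its response differed by -0.46 (adjusted p = 0.0104).

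Of 15 p53 targets, 8 rose (53.3%) and 1 fell with TNF in dIEC, and 6 rose (40%) and 2 fell in f/f, with a median log2 change of 0.30 in dIEC and 0.07 in f/f. Under TNF 5 were higher in dIEC than in f/f (against 3.79% of all genes) and 0 lower, and the response differed upward for 3 (against 1.39% of all genes). Pmaip1, a BH3-only death gene, was at 29.4 ± 2.43 FPKM in dIEC with TNF, 24.2 ± 1.22 in f/f with TNF, 11.3 ± 0.683 in unstimulated dIEC and 10.4 ± 0.419 in unstimulated f/f. Phlda3, an inhibitor of AKT, was at 4.78 ± 0.565 FPKM in dIEC with TNF, 3.4 ± 0.566 in f/f with TNF, 1.71 ± 0.291 in unstimulated dIEC and 2.37 ± 0.246 in unstimulated f/f, with a difference of responses of 0.71 (adjusted p = 0.0122). Eda2r and Plk2, chosen after their values were seen, completed the 3, at 0.72 and 0.41 (adjusted p = 0.0031 and 0.0259). Mdm2, which degrades p53, was higher by 0.20 in dIEC under TNF (adjusted p = 0.0271).

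Of 19 regulators of the RB, E2F, MuvB and FOXM1 group, 8 rose (42.1%) and 3 fell with TNF in dIEC, and 5 rose (26.3%, near the share of all genes) and 0 fell in f/f. Mybl2, which encodes B-MYB, rose by 0.70 in dIEC (adjusted p = 0.000259) and 0.52 in f/f (adjusted p = 0.00318). Of 19 other cyclins, kinases and phosphatases, 9 rose (47.4%) and 1 fell in dIEC, and 3 rose (15.8%) and 4 fell (21.1%) in f/f. Cdk6, a partner of D cyclins, was at 9.5 ± 0.621 FPKM in dIEC with TNF, 11.2 ± 0.395 in f/f with TNF, 4.94 ± 0.842 in unstimulated dIEC and 6.37 ± 0.522 in unstimulated f/f, and it rose in both genotypes, by 0.83 in dIEC and 0.73 in f/f.

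Of 48 other replication genes, 16 rose (33.3%, the share of all genes being 33.4%) and 7 fell (14.6%) with TNF in dIEC, and 7 rose (14.6%) and 13 fell (27.1%) in f/f. The polymerase subunit Pold3 and the ligase Lig1 rose in both genotypes, and the clamp loader subunit Rfc4 fell in both, by -0.39 in dIEC and -0.50 in f/f. Of 49 other mitotic genes tested, 17 rose (34.7%, near the 33.4% of all genes) and 6 fell (12.2%) in dIEC, and 5 rose (10.2%) and 16 fell (32.7%, against 20.3% of all genes) in f/f. Ect2, which directs cytokinesis, rose by 0.74 in dIEC (adjusted p = 3.75e-07) and 0.54 in f/f (adjusted p = 1.47e-05), and the kinetochore genes Spc25 and Cenpk fell in both. The response differed upward for 3 of the 49 (6.12%, against 1.39% of all genes): Melk, at 0.20 (adjusted p = 0.0357), and, chosen after their values were seen, Ckap2 (0.28) and Prc1 (0.23). Of 23 genes of the ubiquitin ligases APC/C and SCF, 5 rose (21.7%) and 2 fell (8.7%) in dIEC, and 2 rose (8.7%) and 4 fell (17.4%) in f/f, each below the share of all genes. Pttg1, securin, was higher in dIEC than in f/f under TNF by 0.34 (adjusted p = 0.0125).

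Cell type markers moved along with these comparisons. Of 18 stem cell genes, 16 rose with TNF in each genotype (88.9%), against 33.4% of all genes in dIEC and 26.9% in f/f. Their summed level was 1769 ± 50.1 FPKM in dIEC with TNF, 2039 ± 86.0 in f/f with TNF, 1206 ± 116 in unstimulated dIEC and 1410 ± 86.3 in unstimulated f/f (SD, n = 4). Of 20 enterocyte genes, 8 had a lower TNF response in dIEC and 0 a higher one, and their sums were 10939 ± 635, 11884 ± 256, 10864 ± 936 and 9476 ± 169 FPKM in the same groups. Without stimulation 7 of the 20 were higher in dIEC than in f/f (35.0%, against 1.54% of all genes) and 0 lower. With TNF 1 was higher (5.0%, against 3.79% of all genes) and 5 lower (25.0%, against 2.7%). Of 9 tested enteroendocrine and tuft cell genes, 8 rose with TNF in dIEC (88.9%, against 33.4% of all genes) and 5 in f/f (55.6%, against 26.9%). Under TNF 5 were higher in dIEC than in f/f (55.6%, against 3.79% of all genes). The 14 genes of that list summed to 346 ± 34.8 FPKM in dIEC with TNF, 248 ± 21.9 in f/f with TNF, 226 ± 15.9 in unstimulated dIEC and 210.5 ± 15.5 in unstimulated f/f. Of 13 tested Paneth cell genes, which mark cells that do not divide, 6 were lower in dIEC than in f/f in each treatment (46.2%). The shares of all genes lower were 0.784% without stimulation and 2.7% under TNF. Under TNF 1 was higher (7.69%, against 3.79% of all genes). The part of these shifts in the results for the cell cycle genes was not tested.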

How the data were processed

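RNA from 16 organoid libraries was sequenced on an Illumina protocol, per the labels. The authors deposited 1 table of FPKM values per gene and library, made with TopHat2 2.1.1 and Cufflinks 2.2.1 on mm10 and with Cuffdiff, per the submitters' processing notes. The strand setting and the handling of shared reads were not stated, and depth is unknown because FPKM keep no counts. The table's group means and p-values were not used, and 0 columns of per-sample values were left out. Libraries were grouped by their titles.

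The members and gene lists were chosen with earlier results of these data known. Genes averaging 1 FPKM or more over the libraries (11097 rows, with 12750 below) were taken as log2(FPKM + 1) and fitted with limma 3.58.1 in R 4.3.3, with 1 mean per group over all 16 libraries, a mean-variance trend and Benjamini-Hochberg adjustment over all tested rows, and a call was an adjusted p under 0.05. Fold changes on that scale understate low genes. The 40 members were all described, and up to 4 genes of each further list with the smallest adjusted p were named, except 1 gene that is not reported here. The fit was also run on simulated data whose noise was independent between libraries. That run could not test the effect of GC trends or of deviations shared by libraries. Deviations of libraries of the same replicate number correlated across treatments at 0.12 to 0.42 in dIEC and at -0.03 to 0.32 in f/f. Between genotypes they correlated at -0.17 to 0.17. Whether the numbers pair the libraries was not stated in the labels, and the main fit did not use them. Alternatives were another pseudocount, other minimum means, quantile and median-of-ratios scaling, separate fits, a replicate block, sample weights, removal of a GC trend, omission of 4 libraries together, and omission of each library in turn.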

Additional observations from a re-analysis of the deposited data

Results flagged for a closer look

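Single libraries far from the other 3 of their group were found in 21 of 172 groups of 4 values (Dixon's test at the 95% level, by which chance flags about 1 in 20 groups). Of the 21, 19 lay in the 4 libraries in which GC-rich transcripts were low. In dIEC with TNF 4, E2f1 (5.48 FPKM), Mcm3 (33.6) and Plk1 (21.7) were low, and Ccna2 (81.1), Kif11 (37.4) and Mki67 (68.3) were high. In f/f with TNF 1, Mcm5 (30.8 FPKM), Mcm7 (59.9), Aurkb (18.9) and Cdc20 (27.8) were low, and Ccnd2 (77.8) and Hmgb2 (158) were high. In unstimulated dIEC 4, Tk1 (28.2 FPKM) and the G1/S level minus the G2/M level (-0.69 on the log2 scale) were low, and Bub1 (12.6) and Kif11 (40.6) were high. In unstimulated f/f 1, Mcm4 (22.8 FPKM), Mcm7 (51.6) and Ccnb2 (32.3) were low. The other 2 were Kif20a in dIEC with TNF 1 (14.9 FPKM) and Ccne2 in unstimulated dIEC 2 (3.65 FPKM), both low.

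The TNF response differed (dIEC minus f/f, tested directly) for Ccnb1 (0.28 on the log2 scale), Cdk1 (0.24), Melk (0.20), Phlda3 (0.71) and Cdkn2b (-0.46). This list covers the members and the genes named by smallest adjusted p from the other lists of the same machinery. Eda2r, Plk2, Ckap2 and Prc1, chosen after their values were seen, also passed. The calls of Ccnb1 and Cdk1 were lost with quantile normalization (limma adjusted p = 0.139 and 0.116) and median-of-ratios scaling (0.147 and 0.21).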

How the results depend on the processing

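Counts of called members were recomputed under 27 alternatives, and under 26 for the difference of responses. The percentage after a count is that of all genes called in the same fit. With single libraries left out it ran from 1.25% to 2.74% for dIEC against f/f without stimulation. With TNF this comparison had 4.84% to 7.81%. For TNF in f/f the range was 40.5% to 52.1%, and for the difference of responses 2.16% to 4.06%. For dIEC against f/f without stimulation, 0 calls (2.32%) became 1 with quantile normalization (2.03%), 20 with sample weights (16.0%), 2 with the GC trend removed (6.69%), 3 with the replicate block and the GC trend removed (7.99%), 12 without the 4 libraries (6.39%), and 0 to 1 when single libraries were left out. For dIEC against f/f with TNF, 2 calls (6.5%) became 1 with quantile (6.03%) or median-of-ratios scaling (6.42%), 9 with weights (23.0%), 6 with the GC trend removed (16.2%), 8 with block and GC together (17.9%), 4 without the 4 libraries (13.6%), and 1 to 4 with single libraries left out. For TNF in f/f, 16 calls (47.2%) became 25 with the replicate block (66.1%), 29 with weights (68.7%), 27 with block and GC together (65.7%) and 26 without the 4 libraries (62.0%), and 15 to 20 with single libraries left out. For TNF in dIEC, 28 calls (53.1%) became 20 with quantile normalization (49.5%) to 34 with the block (70.8%). For the difference of responses, 2 calls (3.29%) became 1 with quantile (3.31%) or median-of-ratios scaling (3.63%), 17 with the replicate block (11.1%), 26 with weights (17.3%), 9 with the GC trend removed (9.22%), 14 with block and GC together (12.3%), 17 without the 4 libraries (8.71%), and 1 to 6 with single libraries left out. Libraries of the same number correlated in their deviations at -0.03 to 0.32 across treatments in f/f, and at -0.17 to 0.17 between genotypes. With the GC trend removed, Plk1 turned to -0.0891 with TNF in f/f and Cdc20 to -0.15 with TNF in dIEC, with or without the block. The cause was not tested. FPKM give no counts, so no limit of detection could be set.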
